A study of Homo sapiens with 12 samples.

Results

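The small non-coding RNAs described here were read from 12 whole-genome expression bead arrays (Illumina HumanHT-12) of U2OS cells, a human osteosarcoma line. They were chosen by symbol: small nucleolar RNAs (snoRNAs) of the SNORD, SNORA and RNU105 series, small Cajal body RNAs (SCARNA), spliceosomal small nuclear RNAs (RNU), the Y RNAs, the vault RNAs, the RNA of the signal recognition particle, and the RNAs of RNase P and RNase MRP. The rule matched 329 of the 47313 probes, for 324 genes. Of these, 198 probes for 195 genes were detected on at least 2 of the 12 arrays and were tested; the other 131 were not.

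The cells had been given ST362 or MEB55, synthetic analogues of the strigolactone plant hormones, at 5 ppm, or the vehicle, acetone, and were collected at 6 h or 24 h. Each of the 6 groups had 2 arrays, so each treatment had 4 over both times. Both analogues were dosed by mass, so the comparison between them is not matched in moles. The labels do not say whether the 2 arrays of a group came from separate cultures, and p-values measure only the spread between these arrays. All groups are a single cell line, without a donor tissue or a second line to set beside it. The labelling kit primes with oligo(dT), and most of the RNAs described here lack a poly(A) tail. Whether a probe read the mature RNA, a tailed precursor or the transcript that contains it was not tested.

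Most listed markers of the labelled cell type were present: 6 of 9 bone and mesenchymal genes were detected on all 12 arrays, among them VIM, SPARC, COL1A1 and ALPL, while COL1A2 was detected on 1. Of 6 epithelial markers, only EPCAM was detected on all 12, and of 5 blood markers none was. Array medians lay between 80.7 and 90.4 signal units, with 42.7% to 47.4% of all probes detected. Vehicle 6 h replicate 1 stood apart with a 75th percentile of 149.3, against 115.1 to 125.4 on the other 11 arrays, and a median signal of the tested small RNA probes of 119.4, against 91.3 to 101.8.

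The 2 arrays of each analogue group also differed strongly from each other. HSPA6, an inducible heat shock protein, lay 5.95 and 0.44 (log2) above the vehicle mean on ST362 6 h replicates 1 and 2. On the MEB55 6 h arrays it lay 6.46 and 1.06 above. On the ST362 24 h arrays it lay 0.20 and 6.51 above, and on the MEB55 24 h arrays 0.25 and 7.99. HSPA6 was therefore low on replicate 2 of both analogues at 6 h and on replicate 1 of both at 24 h. These 4 are named here because several small RNAs were high on the same arrays. They are not a group of the study, and no test was run on them. Whether any of the 12 arrays carries a wrong label was not tested, and every change and p-value by label rests on the labels as given.

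In human cells most snoRNAs lie in introns of other genes and are released as the intron is trimmed. C/D box snoRNAs guide methylation of ribosomal RNA and H/ACA box snoRNAs guide pseudouridylation, while a few, such as U3 and U17, act in the cleavage of the ribosomal RNA precursor. Small Cajal body RNAs guide the same changes in spliceosomal RNAs. The U-RNAs are the cores of the spliceosome, and the Y, vault, 7SL, RNase P and RNase MRP RNAs are made by RNA polymerase III.

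Some of these RNAs also carry a microRNA hairpin, and the sequences of 2 such hairpins are shown because they overlap small RNAs that were detected on all 12 arrays. RefSeq places the MIR3651 hairpin at chr9:92292458-92292547 of GRCh38.p14, minus strand, sharing 87 of its 90 bases with SNORA84, and the MIR6516 hairpin at chr17:77089417-77089497, plus strand, sharing 77 of its 81 bases with SCARNA16. Capitals mark the mature microRNAs, and both sequences run 5′ to 3′.
MIR3651: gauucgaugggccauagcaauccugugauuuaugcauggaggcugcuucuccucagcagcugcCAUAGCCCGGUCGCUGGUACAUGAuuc
MIR6516: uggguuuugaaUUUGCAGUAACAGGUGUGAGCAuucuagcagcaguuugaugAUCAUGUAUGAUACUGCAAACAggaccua
The SNORA84 probe read 0.30 ± 0.12 (log2, SE) higher with MEB55 than with vehicle over both times (limma adjusted p = 0.374). The SCARNA16 probe differed by 0.02 ± 0.25 (adjusted p = 0.991).

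Detection differed by class. Probes detected on at least 2 arrays made up 80 of 178 C/D box snoRNA probes (44.9%), 76 of 102 H/ACA box probes (74.5%), 19 of 24 small Cajal body RNA probes (79.2%) and all 13 small nuclear RNA probes, against 54.5% of all probes on the arrays. All 4 Y RNAs, 7SL, RNase P RNA and RNase MRP RNA also passed, as did 2 of 3 vault RNA probes and 1 of 2 RNU105 probes. The snoRNA clusters of the imprinted regions were nearly undetected: 0 of 2 SNORD115, 0 of 5 SNORD116 and 0 of 9 SNORD113 probes passed, and 1 of 15 SNORD114 probes. RMRP was detected on 4 arrays only, VTRNA1-2 on 7 and RNY5 on 8, so their values lay close to background.

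Of the 198 probes, those of U3 lay farthest above vehicle on single arrays. U3 is the C/D box snoRNA that acts in the early cleavages leading to 18S ribosomal RNA. SNORD3A, SNORD3C and SNORD3D are near-identical U3 copies, so their probes may read the same RNA and count as 1 observation. The study itself listed these 3 RNAs as up-regulated at 24 h on these arrays, so they are not independent evidence. Its cutoff of over 2-fold, unadjusted p under 0.05 and signal of at least 100 was run here on separately normalized values. It called 0 small RNA probes higher at 24 h with either analogue. That run followed the labels, under which each analogue group held 1 array with high HSPA6 and 1 with low HSPA6. The study reported elevated heat shock genes with both analogues at its earlier time. Whether the study grouped the arrays as labelled was not tested. The count of 0 therefore speaks only for the arrays as labelled. As deposited, the SNORD3D signal at 6 h was 343.1 and 1781.5 with ST362, 395.1 and 2161 with MEB55, and 419.8 and 435.5 with vehicle. At 24 h it was 1594.7 and 295.7 with ST362, 1605.9 and 473.8 with MEB55, and 407.8 and 429.5 with vehicle. In every analogue group 1 array was thus far above the vehicle arrays and the other was near them.

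On the normalized log2 scale, SNORD3D lay 2.57 (ST362) and 2.67 (MEB55) above the vehicle mean on replicate 2 at 6 h, and 2.26 (ST362) and 2.27 (MEB55) above it on replicate 1 at 24 h. On the other 4 analogue arrays it lay between -0.35 and 0.40, and on the vehicle arrays between -0.46 and 0.31. SNORD3A was 1.95 to 2.50 above the vehicle mean on the 4 high arrays and SNORD3C 2.10 to 2.79. The 4 high arrays were those with low HSPA6. RN7SK, the 7SK RNA that holds an elongation factor inactive, was not chosen by the rule but was high on the same arrays: 1 of its probes lay 4.31, 4.12, 3.77 and 3.69 above the vehicle mean there, 1.89 above on MEB55 24 h replicate 2 and 1.10 above on MEB55 6 h replicate 1. The ribosomal RNA probes were mixed there (6 h arrays first, ST362 before MEB55). One 28S probe lay 2.42, 3.19, 1.65 and 1.75 above the vehicle mean, and the other 28S probe 0.86, 1.20, 0.41 and 0.34 above it. The 18S probe was at 0.56, 1.27, -1.11 and 0.18 relative to that mean, and a 5S probe at 0.90, 2.64, 0.51 and 0.89. The part of these RNAs in the U3 values was not tested, and no correlation over arrays is given because the U3 levels fall into 2 separate sets.

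**Figure D1:**
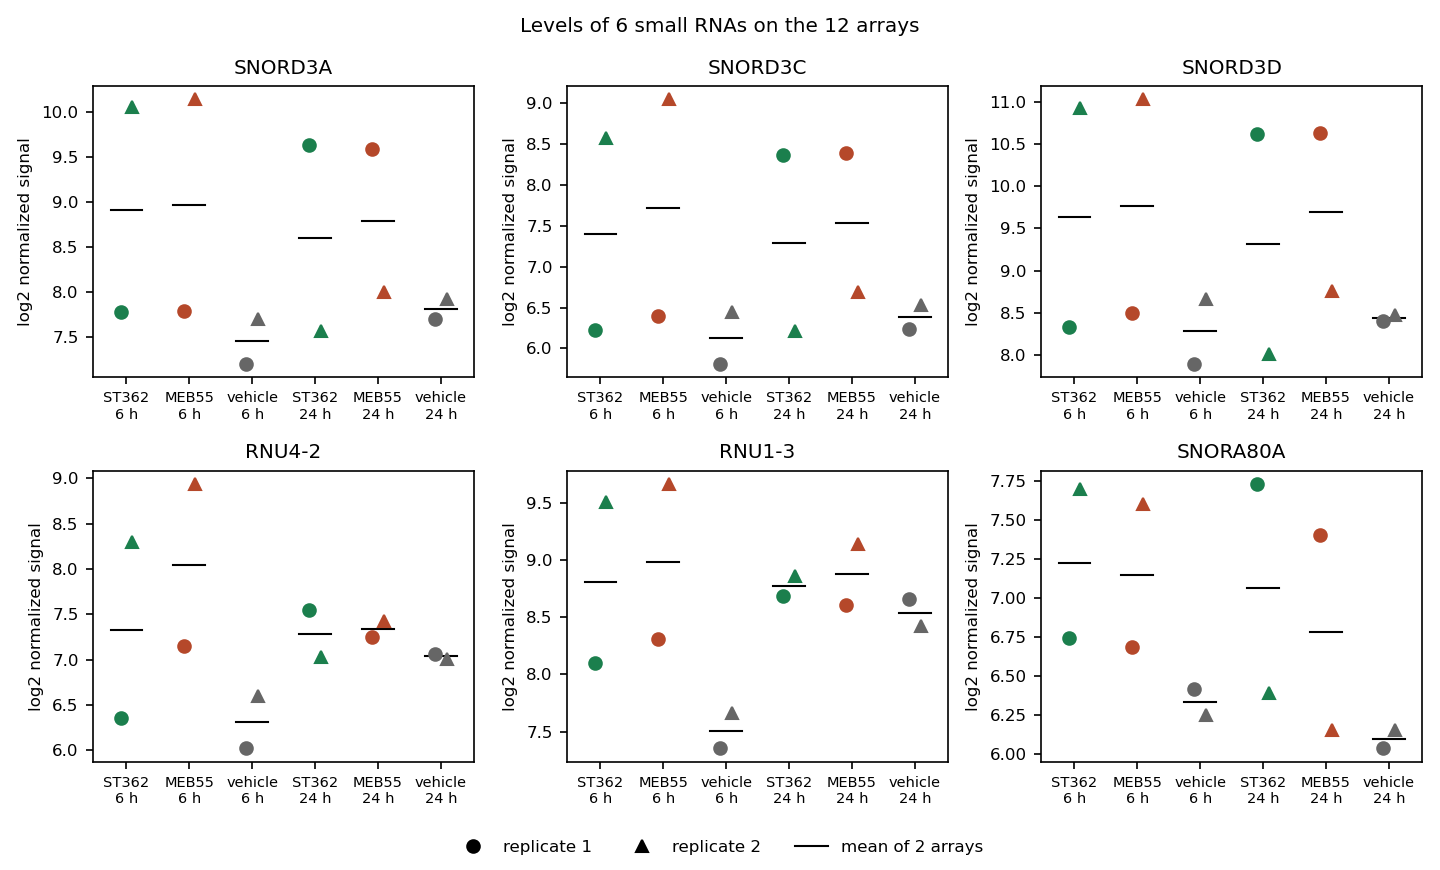
Log2 normalized signal (y axis) of 3 U3 probes, U4, U1 and SNORA80A on the 12 arrays, with groups along the x axis; circles are replicate 1, triangles replicate 2 and bars the mean of 2 arrays. In each analogue group 1 array lies about 2 log2 units above the other for the U3 probes, while the vehicle arrays lie together.

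By label, these splits left no difference past the test. At 6 h SNORD3D averaged 1.35 ± 1.08 (log2 change, SE) above vehicle with ST362 and 1.48 ± 1.08 with MEB55 (limma adjusted p = 0.909 and 0.997). At 24 h the changes were 0.88 ± 1.08 with ST362 and 1.26 ± 1.08 with MEB55 (adjusted p = 0.924 and 0.987). Each of these changes rested on 1 array. At 6 h the SNORD3D change was 0.05 without ST362 replicate 2 and 2.65 without ST362 replicate 1, and it was 0.22 without MEB55 replicate 2 and 2.75 without MEB55 replicate 1. At 24 h it was -0.43 without ST362 replicate 1 and 2.18 without ST362 replicate 2, and it was 0.32 without MEB55 replicate 1 and 2.20 without MEB55 replicate 2. Without ST362 24 h replicate 1 the change was negative for all 3 U3 probes. Over both times SNORD3D was 1.11 ± 0.67 above vehicle with ST362 and 1.37 ± 0.67 with MEB55 (adjusted p = 0.559 and 0.538); leaving out 1 array gave 0.63 to 1.60 with ST362, the lowest without ST362 6 h replicate 2, and 0.94 to 1.78 with MEB55. MEB55 and ST362 did not differ in U3 past the test: for SNORD3D the difference was 0.26, with a 95% interval of -1.17 to 1.69, so a difference of more than 2-fold either way was not excluded.

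Among the spliceosomal RNAs, 12 of 13 probes had a positive change with MEB55 over both times, with a median of 0.34 (log2), against -0.005 for all probes tested; with ST362 11 were positive and the median was 0.21. None passed the test. With MEB55 the median was 0.55 at 6 h, where 13 of 13 were positive, and 0.09 at 24 h, where 9 were. With ST362 it was 0.23 and 0.13, with 10 positive at each time. At 6 h the class median lay 0.59 (ST362) and 0.72 (MEB55) above the vehicle mean on replicate 2, and at -0.01 and 0.13 on replicate 1. At 24 h it lay at 0.331 (ST362) and 0.159 (MEB55) on replicate 1, and at -0.052 and 0.415 on replicate 2. With MEB55 at 24 h the array with low HSPA6 thus had the lower class median. Some of these RNAs have several probes or near-identical copies, so the 13 are not separate observations. RNU4-2, a gene for U4, which escorts U6 into the spliceosome, was at 6.36 and 8.29 with ST362, 7.15 and 8.94 with MEB55 and 6.02 and 6.59 with vehicle at 6 h (log2 level). The 24 h values were 7.54 and 7.03 with ST362, 7.25 and 7.42 with MEB55 and 7.06 and 7.01 with vehicle. The highest values at 6 h were again on the arrays with low HSPA6, and at 24 h the spread was small. Over both times MEB55 exceeded vehicle by 1.02 ± 0.42 (limma adjusted p = 0.433) and ST362 by 0.63 ± 0.42 (adjusted p = 0.619).

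U1 recognizes the 5′ splice site. RNU1-3, which shares nearly all of its sequence with RNU1-1, was at 8.10 and 9.51 with ST362, 8.31 and 9.66 with MEB55 and 7.36 and 7.66 with vehicle at 6 h. By 24 h it was at 8.69 and 8.86 with ST362, 8.61 and 9.14 with MEB55 and 8.66 and 8.42 with vehicle. All 4 analogue arrays at 6 h were thus above both vehicle arrays, which were themselves lower than at 24 h. The 6 h changes were 1.30 ± 0.47 with ST362 and 1.48 ± 0.47 with MEB55 (limma adjusted p = 0.893 and 0.997). RNU6ATAC, of the minor spliceosome, had the smallest adjusted p of these RNAs with MEB55 over both times and was chosen after its values were seen. The probe of its 2 with the larger change ran from 5.90 to 6.23 on the 4 MEB55 arrays, from 5.15 to 6.09 on the ST362 arrays and from 5.26 to 5.48 on the vehicle arrays. MEB55 and vehicle did not overlap, and the change was 0.72 ± 0.18 (adjusted p = 0.111); its second probe changed by 0.52 ± 0.20 (adjusted p = 0.389).

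SNORA74B, an H/ACA box snoRNA of the U19 type inside ATP6V0E1, was the only probe of the 198 past the test in any comparison. It read 5.31 and 6.13 with ST362, 5.38 and 5.61 with MEB55 and 5.18 and 4.80 with vehicle at 6 h. The 24 h arrays read 5.84 and 5.89 with ST362, 5.41 and 5.42 with MEB55 and 5.04 and 4.85 with vehicle. Every analogue array was above every vehicle array. Over both times ST362 exceeded vehicle by 0.82 ± 0.16 (limma adjusted p = 0.0395) and MEB55 by 0.49 ± 0.16 (adjusted p = 0.262). The call was not stable: it was lost without any 1 of 8 of the 12 arrays, with adjusted p up to 0.147, and in 6 other settings. ATP6V0E1, a subunit of the vacuolar proton pump, changed by 0.34 with ST362 and 0.24 with MEB55 (adjusted p = 0.282 and 0.576).

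SNORA80A, an H/ACA box snoRNA inside URB1, was high on the same arrays as U3. With ST362 it lay 1.49 above the vehicle mean on replicate 2 at 6 h and 1.52 on replicate 1 at 24 h, and with MEB55 1.39 and 1.19 on the same replicates. It was above every vehicle array on 3 ST362 and 3 MEB55 arrays, against 2 and 3 for each U3 probe. Over both times it was 0.93 ± 0.33 above vehicle with ST362 and 0.75 ± 0.33 with MEB55 (limma adjusted p = 0.249 and 0.468).

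SNORA73A and SNORA73B, both U17, were also higher on the low-HSPA6 array of each analogue group, but differed from U3 in lying below all vehicle arrays on the other array, and with ST362 on both arrays. The first of 2 SNORA73B probes was at 5.25 and 5.74 with ST362, 4.91 and 6.35 with MEB55 and 6.24 and 5.97 with vehicle at 6 h. At 24 h it was at 5.65 and 4.98 with ST362, 6.37 and 4.96 with MEB55 and 6.29 and 5.94 with vehicle. This probe was over 2-fold below every vehicle array on MEB55 6 h replicate 1 only; the second probe was so on MEB55 24 h replicate 2 only, where it read 5.05, against 6.09 to 6.47 on the vehicle arrays. SNORA73A differed from vehicle by -0.75 ± 0.27 with ST362 over both times (limma adjusted p = 0.270). SNORA61, inside SNHG12, differed by -0.70 ± 0.20 with ST362 (adjusted p = 0.153).

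Among the C/D box snoRNAs other than U3, SNORD36A, which lies in the ribosomal protein gene RPL7A, had the smallest adjusted p with either analogue. It was at 6.97, 6.85, 7.15 and 7.14 on the ST362 arrays, 7.13, 6.92, 7.41 and 7.03 on the MEB55 arrays and 7.57, 7.67, 7.66 and 7.49 on the vehicle arrays (6 h first, then 24 h). All 8 analogue arrays were below the 4 vehicle arrays. The change was -0.57 ± 0.12 with ST362 (limma adjusted p = 0.0601) and -0.47 ± 0.12 with MEB55 (adjusted p = 0.133), and RPL7A changed by -0.08 with each. SNORD52, inside SNHG32, differed by -0.69 ± 0.23 with ST362 (adjusted p = 0.218) and by -0.49 ± 0.23 with MEB55 (adjusted p = 0.524), and both overlapped vehicle. SNORD104 differed by 0.01 ± 0.13 with ST362 and 0.18 ± 0.13 with MEB55 (adjusted p = 0.992 and 0.764).

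The small Cajal body RNAs had a median change of -0.002 with ST362 and -0.008 with MEB55 over both times, and none of 19 passed the test. SCARNA13, SCARNA14 and SCARNA18 had the widest spread over the 12 arrays, with SDs of 0.50, 0.51 and 0.51 (log2). SCARNA14 and SCARNA18 varied as much among the 4 vehicle arrays, where their SDs were 0.74 and 0.75.

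The RNA of RNase P, the enzyme that trims transfer RNA precursors (RPPH1), ran from 5.52 to 6.16 on the ST362 arrays, from 5.90 to 6.73 on the MEB55 arrays and from 6.36 to 6.68 on the vehicle arrays. The ST362 and vehicle arrays did not overlap, with a change of -0.52 ± 0.18 (limma adjusted p = 0.247), while MEB55 changed by -0.03 ± 0.18 (adjusted p = 0.986). The difference between MEB55 and ST362 was 0.50 (95% interval 0.11 to 0.89, adjusted p = 0.519). RMRP changed by 0.01 and 0.03. 7SL RNA (RN7SL1) stayed between 13.17 and 13.60 on all 12 arrays.

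The 4 Y RNAs, which bind the Ro60 protein, all had negative changes at 24 h with both analogues, and changes of both signs at 6 h; none passed the test. RNY4 was at 6.30 and 6.48 with ST362, 6.33 and 6.78 with MEB55 and 6.32 and 5.86 with vehicle at 6 h. At 24 h it was at 5.51 and 5.72 with ST362, 5.92 and 6.17 with MEB55 and 6.28 and 7.00 with vehicle. At 24 h the 4 analogue arrays lay below both vehicle arrays, and the change was -1.03 ± 0.27 with ST362 and -0.60 ± 0.27 with MEB55 (limma adjusted p = 0.524 and 0.971). The change at 24 h differed from that at 6 h by -1.33 ± 0.37 with ST362 (adjusted p = 1). Vehicle itself was 0.55 higher at 24 h than at 6 h for RNY4 and 0.62 for RNY1, and both comparisons share those vehicle arrays. VTRNA1-1, a vault particle RNA, differed by -0.62 ± 0.25 with ST362 (adjusted p = 0.321) and by -0.14 ± 0.25 with MEB55 (adjusted p = 0.931).

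**Figure D2:**
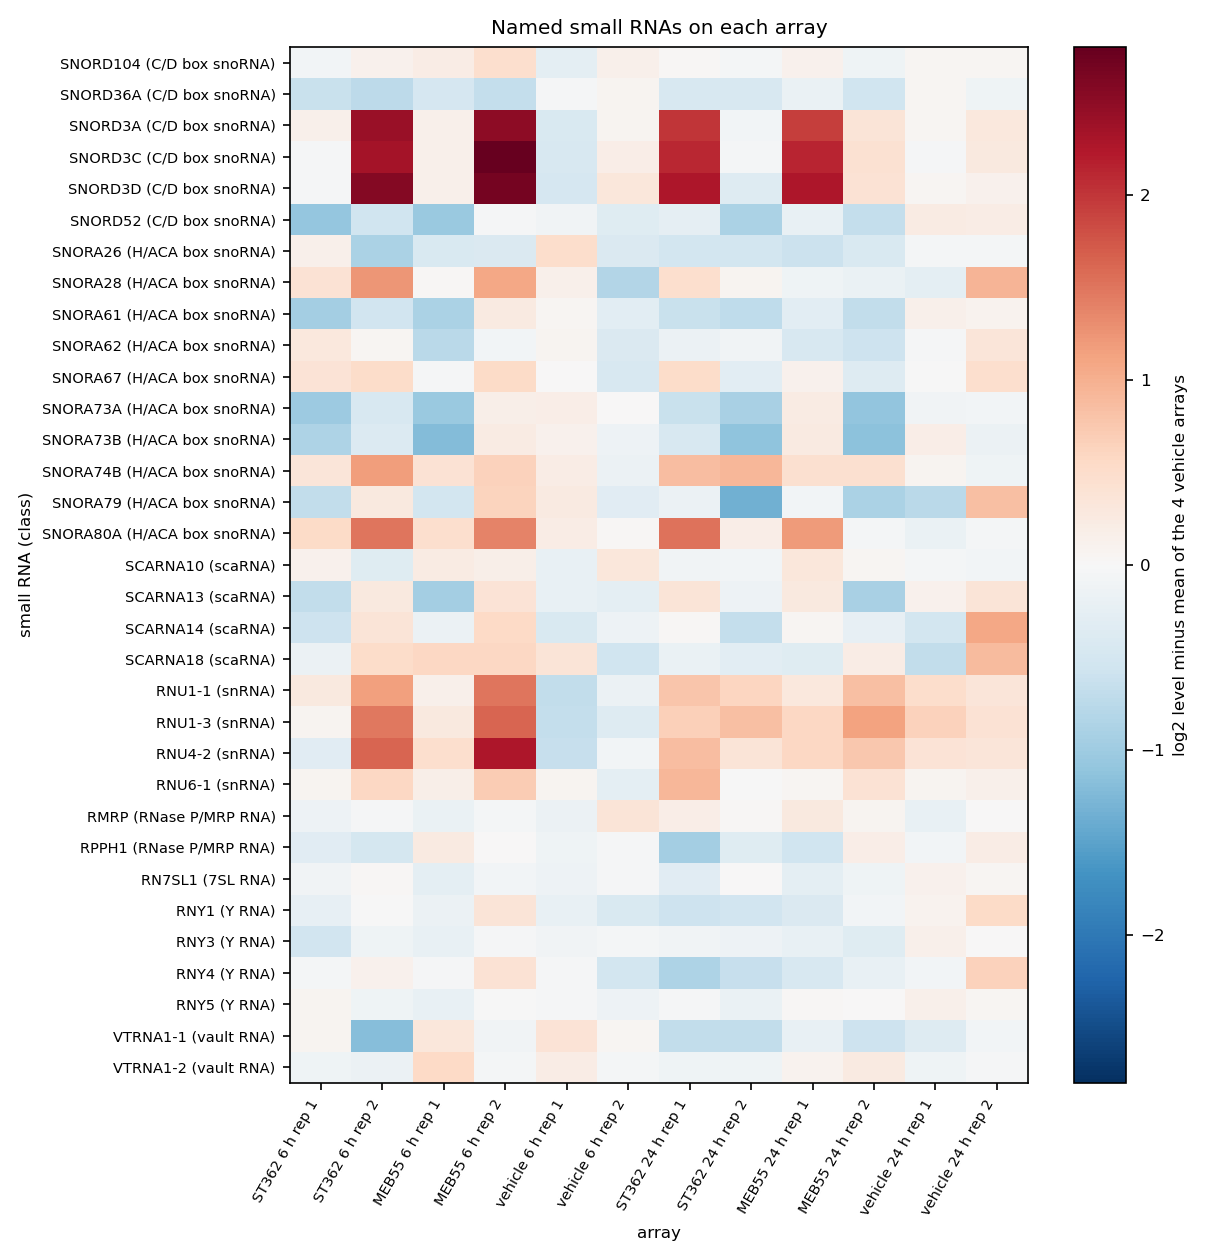
Log2 level minus the mean of the 4 vehicle arrays (colour) for the small RNAs named by rule (rows, with class) on the 12 arrays (columns, ST362, MEB55 and vehicle at 6 h, then at 24 h). The U3 rows are above 1.9 on 1 array of each analogue group, and SNORA73A and SNORA73B are lowest on other analogue arrays.

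Counted over the 198 probes, no comparison at a single time passed the test in either direction, and neither did any of the 25772 probes (0%). At 6 h, an unadjusted p under 0.05 was reached by 6 higher and 9 lower small RNA probes with ST362 (3.03% and 4.55%, against 2.58% and 2.86% of all probes), and by 7 higher and 2 lower with MEB55 (3.54% and 1.01%, against 2.13% and 2.3%). At 24 h it was reached by 2 higher and 18 lower with ST362 (1.01% and 9.09%, against 3.34% and 3.72%) and by 3 higher and 8 lower with MEB55 (1.52% and 4.04%, against 2.49% and 2.62%). An unmoderated linear model also called none. In vehicle, 3 probes were higher and 1 lower at 24 h than at 6 h at that level (background 1.2% and 1.6%). Between MEB55 and ST362, 4 were higher and 1 lower at 6 h (background 1.16% and 1.52%), and 1 higher and 1 lower at 24 h (background 1.7% and 1.77%). The change of the ST362 effect between 6 h and 24 h reached it for 1 higher and 3 lower (background 1.51% and 0.923%), and that of the MEB55 effect for 0 higher and 5 lower (background 0.834% and 0.652%).

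Over both times ST362 had 1 small RNA probe called higher and 0 lower, against 0.229% and 0.237% of all probes, which are 59 and 61. MEB55 had 0 in both directions, against 0.163% and 0.155%. Without adjustment, 13 probes were higher and 33 lower with ST362 (6.57% and 16.7%, against 5.96% and 6.01% of all probes), and 13 higher and 8 lower with MEB55 (6.57% and 4.04%, against 4.71% and 5.04%). The 33 lower ST362 probes held 14 of the 80 C/D box and 14 of the 76 H/ACA box probes, and the 13 higher ones held 2 C/D box and 9 H/ACA box probes. The H/ACA box probes had a median change of -0.03 with ST362, with 42 of 76 negative, and -0.05 with MEB55, also with 42 negative. The C/D box probes had a median change of -0.14 with ST362, and 64 of 80 were negative; with MEB55 the median was -0.06 and 45 were negative. The median over all 198 was -0.09 with ST362 and -0.02 with MEB55. Single-array medians had an SD of 0.17 among the arrays of a treatment, with both times together. That SD is not the spread of a change between treatments, and these median changes were not tested.

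Set against each other over both times, MEB55 and ST362 differed past the test for 0 of the 198 probes in either direction (background 0.0116% and 0.00388%), although 15 were higher and 6 lower at an unadjusted p under 0.05 (7.58% and 3.03%, against 3.49% and 3.95% of all probes). SNORA70, inside RPL10, had the smallest p and was named after its values were seen. It was at 7.17, 7.26, 7.18 and 6.94 on the MEB55 arrays, 6.73, 6.72, 6.68 and 6.96 on the ST362 arrays and 7.18, 7.18, 7.20 and 7.09 on the vehicle arrays. The MEB55 and ST362 arrays overlapped by a narrow margin at 24 h, and the difference was 0.37 (95% interval 0.14 to 0.59, limma adjusted p = 0.409).

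**Figure D3:**
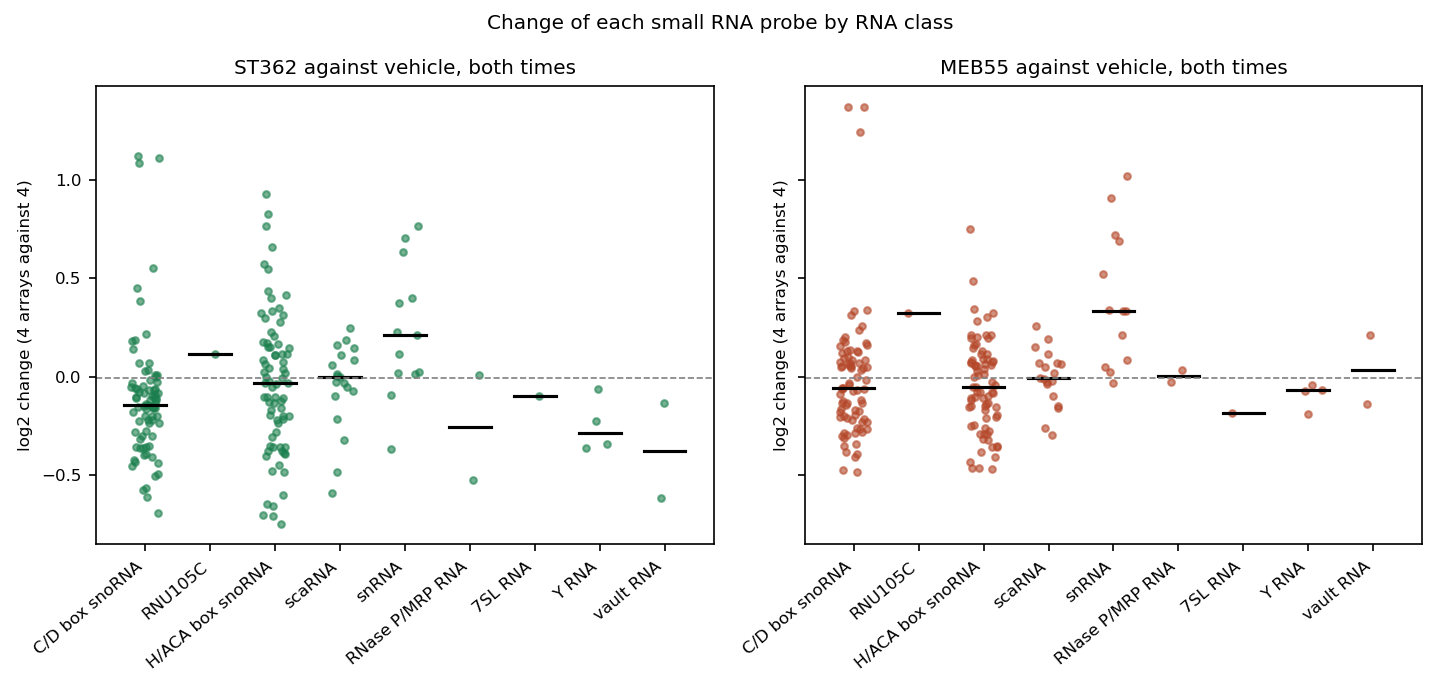
Log2 change over both times (y axis, 4 arrays against 4) of each tested small RNA probe by RNA class, for ST362 and MEB55 against vehicle; points are probes, bars the class median and the dashed line the median of all tested probes. The 3 U3 probes are the highest points in each panel, and the spliceosomal RNAs have the highest class median among classes of more than 1 probe.

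Most of these RNAs lie inside other genes. RefSeq places 179 of the 198 probes within another gene and 19 in none, among them the U3 copies, RNase P and RNase MRP RNA and the Y RNAs; strand was not considered. Of these, 128 lie in exactly 1 gene with a tested probe, 89 such genes in all. The changes of the 128 pairs correlated weakly across pairs (r = 0.22 with ST362, 0.29 with MEB55), where pairs share genes and all share arrays. The small RNA and its containing gene had the same sign in 71 of 128 pairs with ST362 and 79 with MEB55. Random signs would also match in many pairs, and these counts were not tested. Over the 12 arrays the median r between small RNA and gene was 0.25, with 26 pairs above 0.5 and 32 below 0. SNORD57 changed by -0.50 and NOP56, the C/D box protein gene it lies in, by -0.37 with ST362, while SNORA51 in the same gene changed by 0.35. This pair of small RNAs was named after its values were seen, and holds the highest (0.94, SNORD57) and lowest (-0.65, SNORA51) r over arrays.

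**Figure D4:**
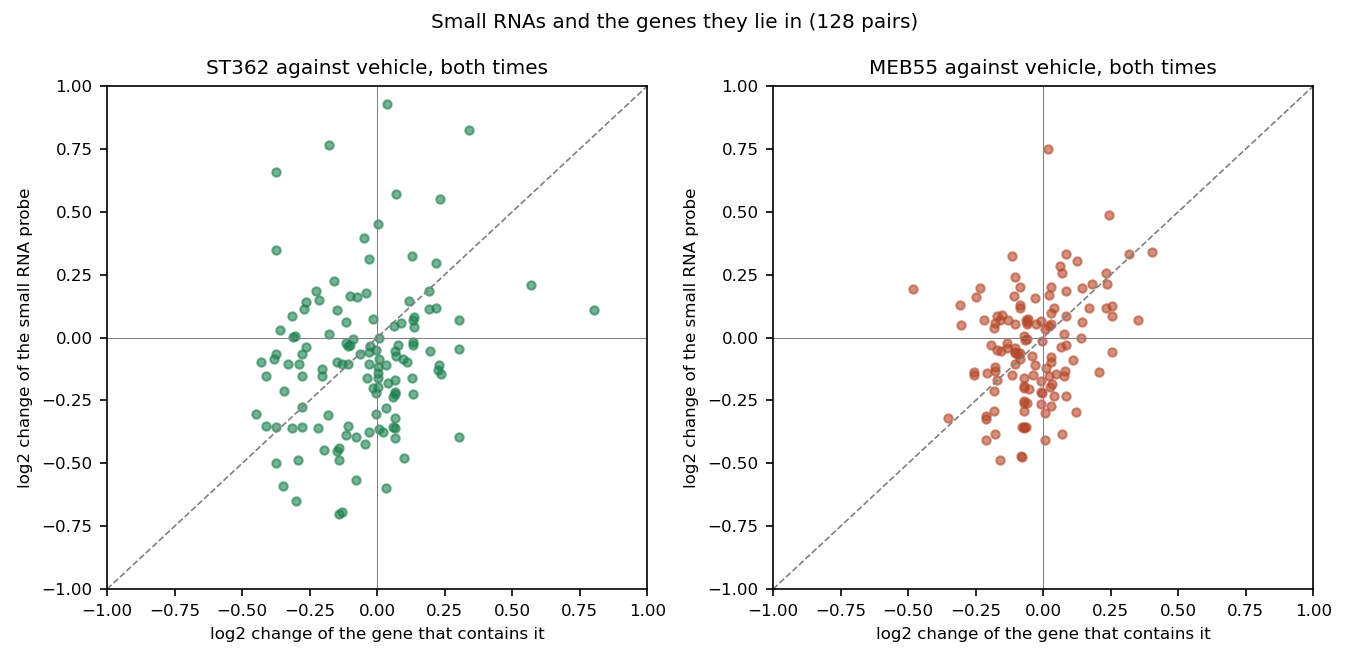
Log2 change over both times of the small RNA probe (y axis) against that of the gene it lies in (x axis), 1 point per pair, for ST362 and MEB55; the dashed line marks equal change. The points scatter widely around the line, with r of 0.22 and 0.29.

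No protein gene of the small RNA pathways passed the test over both times. The 12 C/D box particle proteins had a median change of -0.23 with ST362 and -0.08 with MEB55. FBL, the methyltransferase of the particle, changed by -0.40 ± 0.14 (limma adjusted p = 0.249) and NOP58 by -0.41 ± 0.15 (adjusted p = 0.252). The 7 tested H/ACA proteins had medians of -0.06 with ST362 and 0.01 with MEB55, and the 33 spliceosomal particle proteins -0.13 and -0.10. Processing and export factors (42 tested) had medians of -0.19 and -0.07, transcription factors of small RNA genes (27 tested) -0.02 and -0.05, and 40 snoRNA host genes -0.04 and -0.02. The 9 RNase P and RNase MRP proteins had medians of -0.07 and 0.06, the 6 signal recognition particle proteins -0.06 and 0.02, and the 4 vault and Y RNA partners 0.07 and 0.04, ST362 given before MEB55 throughout. At an unadjusted p under 0.05 with ST362, where 6.01% of all probes were lower and 5.96% higher, 3 of 12 C/D box proteins, 1 of 7 H/ACA proteins, 4 of 33 spliceosomal proteins and 5 of 42 processing and export factors were lower and none higher. Of the 40 host genes 7 were lower and 1 higher, of the 27 transcription factors 2 and 2, and of the 6 signal recognition particle proteins 1 and 1. No RNase P, RNase MRP, vault or Y RNA partner protein reached that level with ST362. With MEB55, 5.04% of all probes were lower and 4.71% higher at that level. There, 0 C/D box, 0 H/ACA and 1 spliceosomal protein and 2 processing and export factors were lower and none higher. Of the host genes 0 were lower and 1 higher, and of the transcription factors 2 and 2. Among RNase P and RNase MRP proteins 1 was higher, and no signal recognition particle, vault or Y RNA partner protein reached it. POLR3B, a subunit of RNA polymerase III, differed by -0.60 ± 0.18 with ST362 (adjusted p = 0.160) and by -0.54 ± 0.18 with MEB55 (adjusted p = 0.268). FBL, NOP58 and POLR3B were named after their values were seen.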

How the data were processed

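The authors hybridised total RNA of 12 U2OS samples to Illumina HumanHT-12 arrays and exported probe intensity and detection p-values with GenomeStudio; the deposited intensity values are signals averaged over beads, not normalized between arrays, and the detection p-values, per the file headers, compare each probe with negative control beads. A deposited value table of the series, also intensity, matched quantile normalized signals within 0.364% and served as an alternative. Signals were background corrected and quantile normalized with neqc (limma 3.58.1, R 4.3.3; offset 16) and taken as log2. Probes detected at p under 0.05 on at least 2 arrays (25772 of 47313) were tested in limma, with 6 groups (9 contrasts) or with treatment alone (3 comparisons over both times), and p-values were adjusted by Benjamini-Hochberg over all tested probes, with 0.05 as threshold. Changes are given with their SE. Of all probes, 30109 carried 1 gene symbol, 8 several and 17196 none; a probe with several named no gene. The number of arrays limits precision.

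The members, the partner lists and the comparisons were chosen with earlier results of these data known. Small RNAs were named by rule: U3, Y, vault, 7SL, RNase P and RNase MRP; the 3 brightest and the 3 most variable in each of 4 classes; the 4 largest changes in each direction per analogue over both times; and all past the test. Exceptions are named as such. The linear model, the 2-fold cutoff and the signal floor of 100 in the study's methods were run as alternatives. The fits were tested on simulated data. Samples were grouped by their labels. Replicate numbers were not used to pair samples.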

Additional observations from a re-analysis of the deposited data

Results flagged for a closer look

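Among 33 named small RNAs, 6 of 99 sets of 4 arrays of a treatment held 1 array far from the other 3, where chance alone gives about 1 in 20. RNU4-2 read 8.94 (log2 level) on MEB55 6 h replicate 2, against 7.15 to 7.42 on the other MEB55 arrays. SNORA74B read 5.61 on the same array, against 5.38 to 5.42. SNORA26 read 7.39 on MEB55 24 h replicate 1, against 7.55 to 7.57. RNY3 read 6.94 on ST362 6 h replicate 1, against 7.34 to 7.37 on the other ST362 arrays. SCARNA18 read 7.8 on ST362 6 h replicate 2, against 7 to 7.11. SNORA67 read 8.24 on ST362 24 h replicate 2, against 8.91 to 9.05.

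The 33 named small RNAs were each looked at with both analogues. In 10 of these combinations, both arrays moved one way against the vehicle mean at 6 h and both the other way at 24 h. Random signs also meet this rule in some combinations, so the count is not read as a result. RNY4 changed by -1.03 at 24 h and 0.3 at 6 h with ST362, a difference of -1.33, and by -0.6 and 0.46 with MEB55, a difference of -1.06. RNY1 changed by -0.87 at 24 h and 0.19 at 6 h with ST362 (-1.06) and by -0.55 and 0.4 with MEB55 (-0.96). SNORA28 changed by -0.49 at 24 h and 0.89 at 6 h with MEB55 (-1.38), SCARNA14 by -0.38 and 0.48 (-0.85), and SNORA67 by -0.35 and 0.48 (-0.83). SNORA62 changed by -0.29 at 24 h and 0.34 at 6 h with ST362 (-0.63). RMRP moved the other way, by 0.21 at 24 h and -0.19 at 6 h with ST362 (0.4) and by 0.28 and -0.22 with MEB55 (0.5). None of these differences between times passed the test of the difference in limma (adjusted p = 1 for each); the change of the ST362 effect was -1.33 ± 0.37 (SE) for RNY4. Both analogues were set against the same vehicle arrays.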

How the results depend on the processing

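No small RNA probe passed the test at a single time in any alternative except the study's cutoff, which gave 1 higher with MEB55 at 6 h (RNU1-3) and 1 lower with ST362 at 24 h (RNY4). In each of these comparisons and directions the cutoff, which uses unadjusted p-values, also called 52 of all 25772 probes (0.202%). A single call among 198 probes is therefore not read as a result about these RNAs. Over both times, the count of small RNA probes higher with ST362 was 1, and was 0 with no background correction, an offset of 50, the deposited series values, no probe filter, an unmoderated model, or only the arrays compared. The count lower with ST362 was 0, and was 1 with 75th percentile scaling and with array weights, and 3 with only the arrays compared. The count higher with MEB55 was 0, and 1 with only the arrays compared (RNU6ATAC, adjusted p = 0.0402). Leaving out 1 array gave 0 to 1 higher and 0 to 1 lower with ST362; the lower one was SNORD36A, without MEB55 24 h replicate 1. SNORA74B lost its call without each vehicle array, without either ST362 24 h array, without ST362 6 h replicate 2 and without MEB55 6 h replicate 1. The median change of MEB55 against ST362 at 6 h was 0.128, with a range of -0.085 to 0.334 on leaving out 1 array. ST362 at 24 h reversed for all 3 U3 probes without ST362 24 h replicate 1: leaving out 1 array gave -0.247 to 1.817 for SNORD3A, -0.169 to 1.98 for SNORD3C and -0.428 to 2.182 for SNORD3D. The cause was not tested. With the replicate number as a block, 1 probe was higher and 0 lower with ST362 over both times, and the other counts were 0. Set by replicate number, correlations between groups lay between -0.38 and 0.48 over 15 pairs of groups. Between ST362 and MEB55 r was 0.48 at 6 h and 0.46 at 24 h. Between the times of an analogue it was -0.36 (ST362) and -0.38 (MEB55), and between the times of vehicle 0.35. Between an analogue and vehicle at the same time it lay between -0.16 and 0.07. The number thus matched between analogues at a time and between times in vehicle. It did not match between times of an analogue or between analogue and vehicle, so it was not used for pairing. Reading every probe of a gene in place of its brightest was not run, since each U3 gene has 1 probe. Dim probes, close to background, limit what could be detected.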
